A study of Mus musculus with 12 samples.

Results

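The axon guidance genes described here are ligands and receptors of 4 families: semaphorins with their plexin and neuropilin receptors, Slits with Robos, netrins with Unc5 receptors, and ephrins with Eph receptors. They were taken by symbol, as every row of the count table named Sema3 to Sema7, Plxna to Plxnd, Nrp1, Nrp2, Slit1 to Slit3, Robo1 to Robo4, Ntn with a number, Unc5, Epha, Ephb, Efna or Efnb. This gave 71 of 38924 rows. Of the 71, 59 had enough counts to be tested, among 14870 tested genes. Unc50, a Golgi membrane protein, and Unc5cl match the name pattern but are not netrin receptors. They were kept in the counts, where only Unc50 was tested.

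The tissue was interscapular brown fat, the depot between the shoulder blades that burns fuel to make heat. The 12 labelled mice were all wild-type C57BL/6J and 14 weeks old, and each gave 1 RNA sequencing library. Of these, 4 had lived at 6 °C, 4 at 22 °C and 4 at 30 °C for the last 4 weeks, from 10 weeks of age. For a mouse 6 °C is severe cold, 22 °C mild cold and 30 °C thermoneutral.

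Guidance cues were found as signals that attract or repel growing axons, and the same families also steer endothelial cells, immune cells and mesenchymal cells. Secreted class 3 semaphorins mostly bind a neuropilin that pairs with a plexin, while semaphorins of classes 4 to 7 sit in or on the membrane and mostly bind plexins directly. Slits bind Robos, netrin-1 binds Dcc, neogenin and the Unc5 receptors, and Ephs are receptor tyrosine kinases whose ephrin ligands are themselves held on the neighbouring cell. Brown fat is dense in sympathetic nerve fibres and capillaries, and it holds macrophages, so each of these cell types could contribute reads. In RNA from whole tissue, fewer cells of a type and less RNA per cell cannot be told apart.

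Library totals lay between 18290162 and 32513051 counts, except 86438386 in 22 °C mouse 3. For 10 libraries the column was matched to a numbered mouse. The other 2 carry the letter of the 30 °C group and a number that no label of that group has. They are called mice A and B and may or may not be among the labelled mice of that group. Their strain, age and time at temperature were taken to be those of the group. The 12 brown adipocyte markers summed to 24220 to 26520 CPM at 6 °C, 17350 to 19800 CPM at 22 °C and 10910 to 12880 CPM at 30 °C. CPM is a gene's count scaled to a common library total with TMM factors. Of 12 neuron markers 9 had too few counts to test, Th and Dbh among them, and the list summed to 5.52 to 6.15 CPM at 6 °C, 3.08 to 3.88 CPM at 22 °C and 3.66 to 4.50 CPM at 30 °C. The cell bodies of sympathetic neurons lie outside the depot. The 12 skeletal muscle markers ranged from 36.6 to 1784 CPM at 6 °C, from 925.5 to 3551 CPM at 22 °C and from 917.9 to 4791 CPM at 30 °C, and their part in the results was not tested.

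More guidance genes were lower than higher in the cold. At 6 °C against 30 °C, 7 of the 59 tested members rose and 31 fell at an adjusted p under 0.05 (edgeR's quasi-likelihood test, Benjamini-Hochberg adjusted over all tested genes). Of all tested genes, 25.3% rose, 31.5% fell and 56.8% changed in either direction in this comparison, against 64.4% of the members. The median log2 fold change was -0.39 over the members and -0.11 over all tested genes. Of the 7 that rose, Ephb2 and Sema4a reached 2-fold, and of the 31 that fell 13 did. Of all 14870 tested genes, 871 rose and 1845 fell at this adjusted p by at least 2-fold. Under scaling by total counts alone, 3 members rose and 36 fell, and 13% of all tested genes rose and 53% fell. That scaling moved the median of all genes by -0.32, and the members' median then lay 0.27 below it, close to the 0.28 of the TMM scaling. No member was called in the opposite direction under any alternative processing. The ranges of the 4 mice of each group did not overlap for 27 members, or 45.8%, against 51.5% of all tested genes.

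At 22 °C against 30 °C, 1 member (Ephb2) rose and 26 fell. The members called made up 45.8%, near the 44.6% of all tested genes, but all genes divided into 21.8% that rose and 22.8% that fell. Their median was -0.38, against -0.02 over all tested genes. Ranges did not overlap for 25 members, or 42.4%, against 38.9% of all tested genes. These 2 comparisons share the 30 °C mice. At 6 °C against 22 °C the members divided evenly, with 10 higher and 11 lower. That was 35.6% called, against 34.2% of all tested genes (16.9% higher and 17.4% lower), and 20 members had ranges apart, or 33.9%, against 34.9%. The median was 0.12 over the members and -0.03 over all tested genes.

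Whether the change from the 22 °C to the 6 °C group repeated that from the 30 °C to the 22 °C group was tested gene by gene. Each step compares separate groups of mice and does not follow mice over time. The difference of the steps is the log2 fold change of 6 °C against 22 °C minus that of 22 °C against 30 °C. It was positive in 16 members and negative in 4 at an adjusted p under 0.05, or 33.9%, against 29.3% of all tested genes (14.3% positive and 15% negative). Its median was 0.31 over the members and -0.04 over all tested genes. Of 26 tested receptors, 10 were positive (38.5%) and 1 negative (3.85%). Of 32 tested ligands, 6 were positive (18.8%) and 2 negative (6.25%), and the remaining negative call was Unc50. Whether receptors and ligands differ was not tested.

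**Figure D1:**
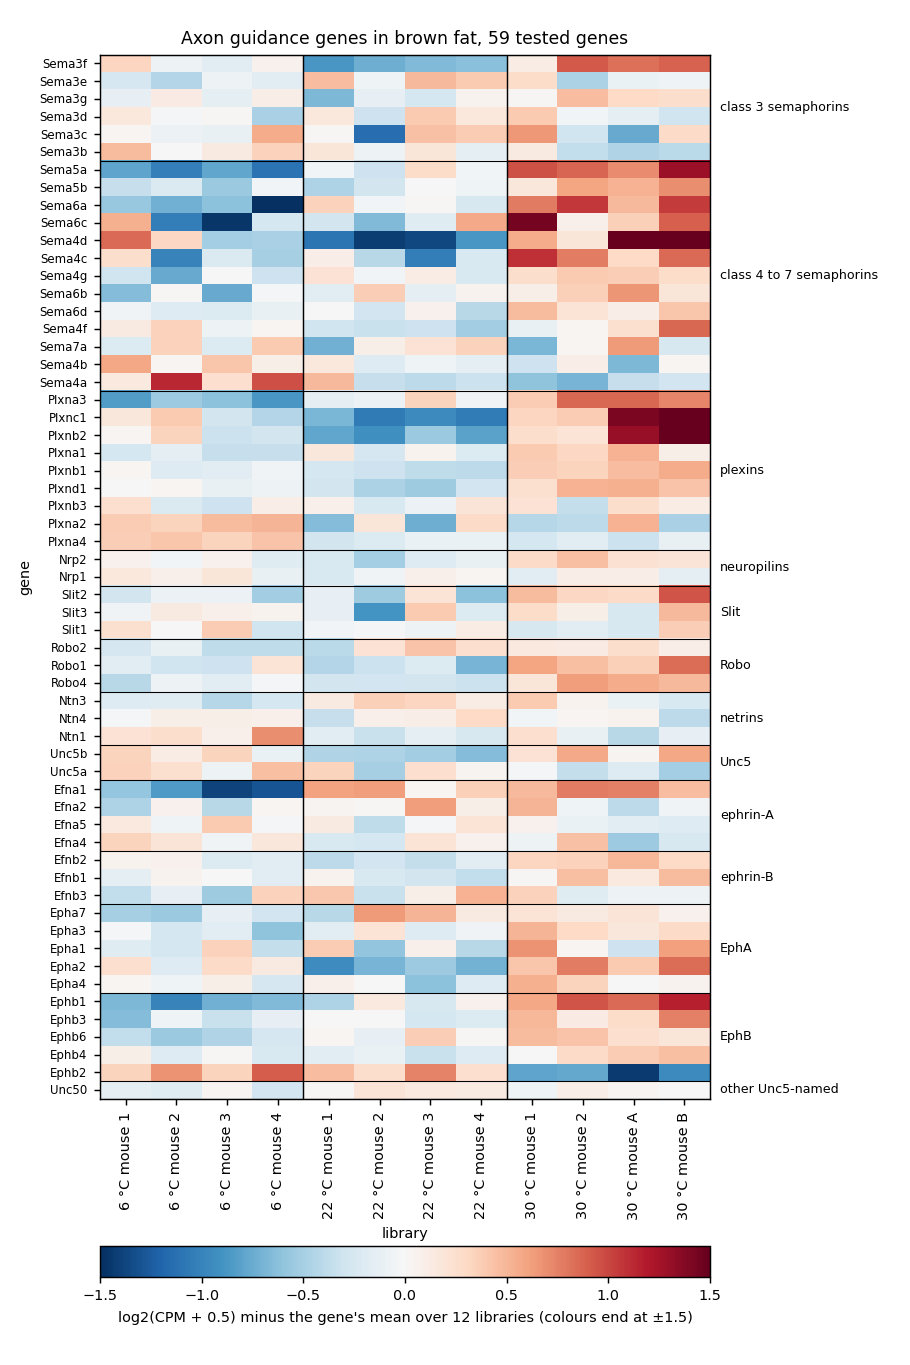
Level of each of the 59 tested genes in each of the 12 libraries, as log2(CPM + 0.5) minus the gene's mean over the libraries, with colours ending at ±1.5 and families separated by lines. Red in the 4 libraries of 30 °C at the right marks most of the 31 genes lower at 6 °C, and the middle block of 22 °C holds the lowest values of genes such as Sema4d, Plxnc1 and Epha2.

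The members differed widely in level. Levels were compared between genes only as CPM per kb of exon. Nrp1, a co-receptor for class 3 semaphorins and for vascular endothelial growth factor, was the most abundant, with 35.1 ± 3.16 CPM per kb at 6 °C, 32.3 ± 2.87 at 22 °C and 32.8 ± 3.25 at 30 °C (SD, n = 4 each). Unc50 came next, followed by the plexins Plxnd1 and Plxna1, the ephrin Efnb1, Nrp2 and the Eph receptor Ephb4. Plxnd1 had 19.7 ± 0.866 CPM per kb at 6 °C, 15.5 ± 1.38 at 22 °C and 27.4 ± 2.5 at 30 °C. Only 19 of the 58 tested members with an annotated length exceeded the median of all tested genes, 3.24 CPM per kb. The lowest mean among the tested members with a length was that of Robo2, with 0.00894 ± 0.00359 CPM per kb at 6 °C, 0.0224 ± 0.0117 at 22 °C and 0.0225 ± 0.0027 at 30 °C. The next was that of Slit2, with 0.022 ± 0.00568 CPM per kb at 6 °C, 0.022 ± 0.0113 at 22 °C and 0.0509 ± 0.016 at 30 °C. Ephb2, a receptor with large changes below, had 0.321 ± 0.0715 CPM per kb at 6 °C, 0.289 ± 0.0541 at 22 °C and 0.0841 ± 0.024 at 30 °C. Divided by its longest transcript instead of all exons, Nrp1 had 89.7 CPM per kb over the 12 libraries, against 33.4, and was again first.

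**Figure D2:**
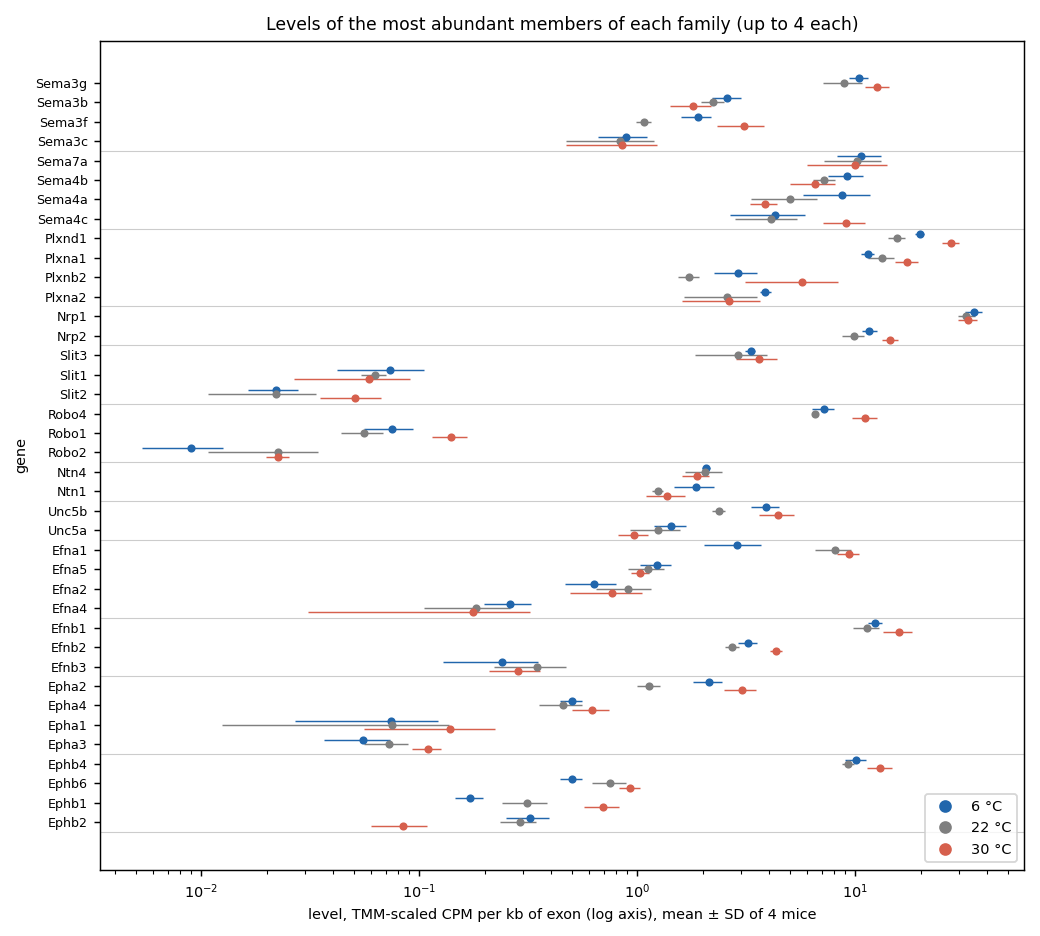
Level per length of up to 4 members of each family, as TMM-scaled CPM per kb of exon on a log axis, with points for the mean and bars for the SD of 4 mice at 6 °C, 22 °C and 30 °C. Nrp1 and Plxnd1 lie highest, and Slit3 and Robo4 lie far above Slit1, Slit2, Robo1 and Robo2.

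Among the secreted class 3 semaphorins, 1 of 6 tested genes rose and 1 fell at 6 °C against 30 °C. Of all tested genes, 25.3% rose and 31.5% fell there. Sema3b, a neuropilin ligand, rose: it had 12.3 ± 1.87 CPM at 6 °C, 10.6 ± 1.28 CPM at 22 °C and 8.56 ± 1.85 CPM at 30 °C (SD, n = 4 each; log2 fold change 0.52, SE 0.16, edgeR adjusted p = 0.0116). That call was lost under total-count scaling (0.21) and without 30 °C mice A and B (0.37). Sema3f, a repellent that binds neuropilin-2, fell in both cold groups and was lowest in mild cold. It measured 11.9, 8.99, 8.42 and 9.92 CPM at 6 °C, 4.95, 5.49, 5.81 and 5.94 CPM at 22 °C, and 10.2, 18.4, 17.2 and 18 CPM at 30 °C. All 22 °C values lay below every other value, and 1 mouse of 30 °C overlapped the 6 °C mice. The change was -1.52 ± 0.18 (adjusted p = 4.23e-05) log2 units at 22 °C against 30 °C, -0.70 ± 0.17 (adjusted p = 0.0037) at 6 °C against 30 °C and 0.82 ± 0.18 (adjusted p = 0.00371) at 6 °C against 22 °C. Without 30 °C mice A and B the second of these was -0.53, with an adjusted p of 0.0643.

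Sema3e, which acts through plexin-D1 without a neuropilin and restrains vessel growth, had its highest mean in mild cold. It had 0.406, 0.301, 0.531 and 0.472 CPM at 6 °C, 0.99, 0.537, 1.01 and 0.924 CPM at 22 °C, and 0.813, 0.281, 0.509 and 0.536 CPM at 30 °C. Against 30 °C it was 0.71 ± 0.31 (edgeR adjusted p = 0.0811) at 22 °C and -0.34 ± 0.34 (edgeR adjusted p = 0.407) at 6 °C, so neither change was called. That at 22 °C was called higher by limma voom, and by edgeR without 22 °C mouse 2 or without 30 °C mouse 1. The 6 °C range lay below the 22 °C range, and the gene was lower at 6 °C than at 22 °C (log2 fold change -1.05, SE 0.33, edgeR adjusted p = 0.0253). Its difference of the steps was -1.77 (SE 0.54, adjusted p = 0.0262). Without 22 °C mouse 3, the deeply sequenced library, the adjusted p-values were 0.0755 and 0.0953. The first call was also lost without 6 °C mouse 1 or 2 or 22 °C mouse 1 or 4, and the second without 6 °C mouse 2 or 22 °C mouse 1 or 4. The second was lost too without 30 °C mice A and B together. Sema3g, an endothelial semaphorin and the most abundant of the class at 10.4 ± 1.02 CPM per kb at 6 °C, 8.9 ± 1.83 at 22 °C and 12.6 ± 1.59 at 30 °C, fell in mild cold (log2 fold change -0.50, SE 0.14, edgeR adjusted p = 0.0105). Its values were 43.5, 51.5, 42.9 and 50.9 CPM at 6 °C, 29.6, 43.4, 39.3 and 49.4 CPM at 22 °C, and 47.9, 65.6, 58.2 and 57.2 CPM at 30 °C, and the 22 °C and 30 °C ranges overlapped by 1 mouse. Without mice A and B the change was -0.49 (adjusted p = 0.0689). Sema3c and Sema3d did not pass the test in any pair, with log2 fold changes between -0.5 and 0.39.

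The semaphorins of classes 4 to 7 are bound to the membrane in most cases. Of 13 tested genes, 2 rose (15.4%) and 9 fell (69.2%) at 6 °C against 30 °C, against 25.3% and 31.5% of all tested genes. Their median was -0.87, against -0.11 over all tested genes. Sema5a, a transmembrane semaphorin that repels retinal axons in the mouse through plexin-A1 and plexin-A3, fell stepwise with temperature. Its CPM values were 3.25, 2.67, 3.29 and 2.52 at 6 °C, 5.79, 4.71, 7.32 and 5.81 at 22 °C, and 12.1, 11.3, 10.1 and 15.3 at 30 °C. The 3 ranges did not overlap. The fall was 4.15-fold at 6 °C against 30 °C (log2 fold change -2.05, SE 0.17, edgeR adjusted p = 9.15e-07), and the steps were alike: -1.03 ± 0.16 (adjusted p = 0.000299) at 22 °C against 30 °C and -1.02 ± 0.17 (adjusted p = 0.000772) at 6 °C against 22 °C. Their difference was 0.02 with an SE of 0.30. Its paralog Sema5b, at 0.236 ± 0.11 CPM at 6 °C, 0.285 ± 0.114 CPM at 22 °C and 0.769 ± 0.187 CPM at 30 °C, was also lower in both cold groups than at 30 °C, although without mice A and B the change at 22 °C was -1.11 (adjusted p = 0.0957).

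Sema6a, a transmembrane ligand of plexin-A2 and plexin-A4, followed the same order. It had 13.8, 12.4, 13.3 and 6.66 CPM at 6 °C, 26.5, 20.1, 21 and 17.4 CPM at 22 °C, and 35.9, 43.9, 29.3 and 43.2 CPM at 30 °C. Again no range overlapped another, and 6 °C mouse 4 was lowest of all. The gene was 3.28-fold lower at 6 °C than at 30 °C (log2 fold change -1.71, SE 0.22, edgeR adjusted p = 4.20e-05), with -0.84 ± 0.21 (adjusted p = 0.00656) at 22 °C against 30 °C and -0.87 ± 0.22 (adjusted p = 0.00888) at 6 °C against 22 °C. The other class 6 genes were lower at 6 °C than at 30 °C too, by -0.67 for Sema6b, -0.45 for Sema6d and -1.32 for Sema6c. Without mice A and B the change of Sema6b was -0.54 (adjusted p = 0.0873) and that of Sema6c -1.44 (adjusted p = 0.114). Sema6c had a wide spread, 2.19 ± 1.67 CPM at 6 °C, 2.77 ± 1.26 CPM at 22 °C and 5.41 ± 2.53 CPM at 30 °C, and an adjusted p of 0.0497, which was above 0.05 without 6 °C mouse 2, 3 or 4, without 22 °C mouse 1, 2 or 3, or without 30 °C mouse 1, A or B.

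Sema4a, which acts on T cells and on vessels, was the semaphorin with the largest rise. It measured 32.2, 64.1, 34.6 and 57.1 CPM at 6 °C, 40.6, 22.7, 21.9 and 23 CPM at 22 °C, and 18.9, 17.6, 22.7 and 23.7 CPM at 30 °C. Every 6 °C mouse exceeded every 30 °C mouse, and 22 °C mouse 1 stood within the 6 °C range. The rise was 2.26-fold (log2 fold change 1.18, SE 0.26, edgeR adjusted p = 0.00273), and at 6 °C against 22 °C it was 0.80 ± 0.26 (adjusted p = 0.0347). That second call was lost without 6 °C mouse 2 or 4, or without 22 °C mouse 2, 3 or 4, at adjusted p-values from 0.0883 to 0.0989. It was also lost without 30 °C mice A and B together. Its relative Sema4b also rose at 6 °C against 30 °C, with 51.9 ± 9.58 CPM at 6 °C, 40.7 ± 4.63 CPM at 22 °C and 37 ± 8.71 CPM at 30 °C and overlapping ranges (log2 fold change 0.49, SE 0.17, edgeR adjusted p = 0.0277). Scaling by total counts or by the upper quartile left no call for Sema4b, nor did leaving out 6 °C mouse 1 or 3 or 30 °C mouse 1 or A. Leaving out 30 °C mice A and B together left none either.

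Sema4c, a plexin-B2 ligand, was lower in both cold groups. Its values were 29, 11.7, 20.6 and 16.8 CPM at 6 °C, 25.8, 17.9, 11.4 and 20.5 CPM at 22 °C, and 52, 41.3, 29.8 and 43.7 CPM at 30 °C. The 2 cold groups overlapped each other and lay below all 30 °C mice (log2 fold change -1.09, SE 0.30, edgeR adjusted p = 0.00946 for 6 °C; log2 fold change -1.15, SE 0.30, edgeR adjusted p = 0.00946 for 22 °C). At 6 °C against 22 °C it was 0.06 ± 0.30 (adjusted p = 0.898). Sema4g fell at 6 °C against 30 °C (log2 fold change -0.87, SE 0.23, edgeR adjusted p = 0.00613), with 1.04 ± 0.319 CPM at 6 °C, 1.46 ± 0.256 CPM at 22 °C and 1.9 ± 0.107 CPM at 30 °C. Its values were 1.06, 0.635, 1.42 and 1.05 CPM at 6 °C, 1.73, 1.37, 1.58 and 1.14 CPM at 22 °C, and 1.8, 2.01, 1.98 and 1.83 CPM at 30 °C. Sema7a, a semaphorin held by a lipid anchor that binds plexin-C1 and integrins, was the most abundant of these classes at 10.7 ± 2.48 CPM per kb at 6 °C, 10.1 ± 2.93 at 22 °C and 9.98 ± 3.98 at 30 °C. It spread widely within groups and did not pass the test in any pair: it had 28.1, 41.5, 28.1 and 43 CPM at 6 °C, 19.5, 34.7, 37.9 and 41.5 CPM at 22 °C, and 20.1, 33.2, 50.9 and 27.5 CPM at 30 °C.

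Sema4d, the immune semaphorin CD100 and a ligand of plexin-B1, had the largest fall of all members in mild cold. It had 11.5, 7.76, 4.18 and 4.25 CPM at 6 °C, 2.62, 1.97, 2.08 and 3.12 CPM at 22 °C, and 9.25, 7.03, 26.3 and 23.4 CPM at 30 °C. All 22 °C values lay below all others, while the 6 °C range overlapped that of 30 °C, where mice A and B were well above mice 1 and 2. The gene was 6.78-fold lower at 22 °C than at 30 °C (log2 fold change -2.76, SE 0.49, edgeR adjusted p = 0.00103) and 2.38-fold lower at 6 °C (log2 fold change -1.25, SE 0.45, edgeR adjusted p = 0.0352). It was 2.85-fold higher at 6 °C than at 22 °C (log2 fold change 1.51, SE 0.49, edgeR adjusted p = 0.0336). Without mice A and B the change at 22 °C was -1.74 (adjusted p = 0.00716), and that at 6 °C against 30 °C was -0.22 (adjusted p = 0.669). The call at 6 °C against 30 °C was also lost without 30 °C mouse A or B alone or 6 °C mouse 2, 3 or 4, and that between 6 °C and 22 °C without any 1 of the 22 °C mice or 6 °C mouse 1 or 2.

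The macrophage markers moved with Sema4d. Of 15 tested markers, 11 were lower at 6 °C and 14 at 22 °C than at 30 °C, and 7 were higher and 1 lower at 6 °C than at 22 °C. Their summed level was 293.2 to 601 CPM at 6 °C, 161 to 224.4 CPM at 22 °C and 564.4 to 1950 CPM at 30 °C, where mice A and B had the 2 highest sums. No tested macrophage marker was at 0 in a group's mean. Of 12 T and natural killer cell markers 11 were tested, and all 11 were lower at 6 °C and at 22 °C than at 30 °C, with none called between 6 °C and 22 °C. They summed to 2.31 to 5.52 CPM at 6 °C, 3.76 to 5.44 CPM at 22 °C and 13.6 to 26.2 CPM at 30 °C, where mice A and B were again the highest. Of all tested genes, 31.5% were lower at 6 °C and 22.8% at 22 °C than at 30 °C. At 6 °C against 22 °C, 16.9% were higher and 17.4% lower. The part of either marker list in the result was not tested.

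Slits are large secreted repellents, and a fragment of Slit2 is known in mice to raise thermogenic gene expression in fat. Slit2 itself fell: it had 0.528, 0.669, 0.672 and 0.367 CPM at 6 °C, 0.643, 0.358, 0.931 and 0.308 CPM at 22 °C, and 1.22, 1.04, 1.02 and 1.89 CPM at 30 °C, with the 30 °C range above both cold ranges. The log2 fold changes were -1.18 ± 0.35 (adjusted p = 0.0117) at 6 °C and -1.09 ± 0.35 (adjusted p = 0.0205) at 22 °C against 30 °C, and neither call held without 30 °C mice A and B. The second was also lost without 22 °C mouse 2 or 4 or 30 °C mouse B. Slit3, the most abundant Slit at 3.31 ± 0.175 CPM per kb at 6 °C, 2.88 ± 1.04 at 22 °C and 3.6 ± 0.769 at 30 °C, had 18.6, 21.2, 20.4 and 19.99 CPM at 6 °C, 17.6, 10.1, 25.5 and 16.6 CPM at 22 °C, and 23.4, 20.5, 16.2 and 27.3 CPM at 30 °C. Its ranges overlapped in all pairs and no pair passed the test, the lowest adjusted p being 0.298 at 22 °C against 30 °C. Without the deep 22 °C library that change was -0.57 (adjusted p = 0.0367). Slit1 was near the limit of detection, with 0.436 ± 0.187 CPM at 6 °C, 0.368 ± 0.0489 CPM at 22 °C and 0.347 ± 0.19 CPM at 30 °C.

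Netrins are laminin-related secreted cues. Ntn1, the best known of them, had 10.7, 11.1, 9.66 and 15.1 CPM at 6 °C, 8.02, 7.16, 8.27 and 7.65 CPM at 22 °C, and 10.9, 8.4, 6.71 and 8.35 CPM at 30 °C. It was higher at 6 °C than at 22 °C, without overlap (log2 fold change 0.57, SE 0.16, edgeR adjusted p = 0.0153), and higher than at 30 °C with overlap (log2 fold change 0.43, SE 0.16, edgeR adjusted p = 0.034). The second call was lost under total-count and upper-quartile scaling, and without 6 °C mouse 4 or 30 °C mouse 2, A or B. It was also lost without mice A and B together. Ntn4, a basement membrane netrin and the most abundant at 2.06 ± 0.0824 CPM per kb at 6 °C, 2.05 ± 0.392 at 22 °C and 1.87 ± 0.269 at 30 °C, did not pass the test in any pair, with 7.27, 7.92, 7.89 and 7.82 CPM at 6 °C, 5.69, 7.81, 7.93 and 9.24 CPM at 22 °C, and 7.18, 7.56, 7.7 and 5.51 CPM at 30 °C. Ntn3 was lower at 6 °C than at 22 °C, with 1.68 ± 0.163 CPM at 6 °C, 2.59 ± 0.274 CPM at 22 °C and 2.21 ± 0.529 CPM at 30 °C (log2 fold change -0.62, SE 0.19, edgeR adjusted p = 0.0229), a call lost without 6 °C mouse 3 or 22 °C mouse 2 or 3.

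Of 4 tested ephrin-A ligands, which are held on the membrane by a lipid anchor, 1 (25%) changed at 6 °C against 30 °C. Of all tested genes 56.8% changed there. The same gene changed at 6 °C against 22 °C, where 34.2% of all tested genes did. No ephrin-A ligand changed at 22 °C against 30 °C, where 44.6% of all tested genes did. Efna1, a ligand of EphA2 that is induced in endothelial cells by inflammatory signals, fell in severe cold. It had 7.11, 5.82, 3.86 and 4.14 CPM at 6 °C, 16.8, 17.1, 11.1 and 14 CPM at 22 °C, and 15.5, 18.9, 18.7 and 15.1 CPM at 30 °C. The 6 °C mice all lay below the rest, and the 22 °C and 30 °C mice overlapped. The gene was 3.25-fold lower at 6 °C than at 30 °C (log2 fold change -1.7, SE 0.20, edgeR adjusted p = 1.25e-05) and 2.8-fold lower than at 22 °C (log2 fold change -1.49, SE 0.20, edgeR adjusted p = 0.000162). At 22 °C against 30 °C it was -0.21 ± 0.19 (adjusted p = 0.383). The difference of the steps was -1.27 (SE 0.32, adjusted p = 0.0106), so the second step was the larger fall. Efna2, Efna4 and Efna5 were not called in any pair by edgeR, although Efna4 was called higher at 6 °C than at 30 °C without 30 °C mouse 2 (1.26, adjusted p = 0.0449).

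The ephrin-B ligands are transmembrane proteins. Efnb2, the arterial ephrin and partner of EphB4, had 23.8, 24.1, 19.9 and 20.4 CPM at 6 °C, 17.4, 18.7, 17.9 and 20.6 CPM at 22 °C, and 28.8, 29.3, 32.6 and 28.4 CPM at 30 °C. Both cold ranges lay below 30 °C, and the changes were -0.43 ± 0.09 (adjusted p = 0.00106) at 6 °C, -0.68 ± 0.09 (adjusted p = 8.70e-05) at 22 °C and 0.24 ± 0.09 (adjusted p = 0.0475) between them. The last was lost without 6 °C mouse 1 or 2, 22 °C mouse 1, 2 or 3, or 30 °C mouse 1, 2 or B. Efnb1 had 42.7 ± 3.2 CPM at 6 °C, 38.9 ± 5.29 CPM at 22 °C and 54.5 ± 8.53 CPM at 30 °C. By mouse it had 40.3, 46.4, 44.3 and 39.7 CPM at 6 °C, 46.5, 38.1, 36.7 and 34.3 CPM at 22 °C, and 45.2, 61.2, 49.4 and 62.4 CPM at 30 °C. Its log2 fold changes were -0.35 ± 0.12 (adjusted p = 0.0208) at 6 °C and -0.49 ± 0.12 (adjusted p = 0.00443) at 22 °C against 30 °C. The first of these was lost without 6 °C mouse 1 or 4 or without 30 °C mouse 2 or B, at adjusted p-values from 0.056 to 0.0677. It was also lost without 30 °C mice A and B together. Efnb3 was not called.

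Among the receptors, 3 of 26 tested genes rose (11.5%) and 17 fell (65.4%) at 6 °C against 30 °C. Of 32 tested ligands 4 rose (12.5%) and 14 fell (43.8%), and of all tested genes 25.3% rose and 31.5% fell. The medians were -0.6 for receptors and -0.32 for ligands. Whether the 2 groups differ was not tested.

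Plexins are transmembrane receptors whose inner part switches off small GTPases. Of 9 tested, 1 rose (11.1%) and 6 fell (66.7%) at 6 °C against 30 °C, against 25.3% and 31.5% of all tested genes. Plxna3, which pairs with neuropilins for class 3 semaphorins, fell stepwise as Sema5a did. It had 1.46, 1.91, 1.8 and 1.42 CPM at 6 °C, 2.67, 2.8, 3.94 and 2.9 CPM at 22 °C, and 4.07, 5.87, 5.9 and 5.36 CPM at 30 °C, and the 3 ranges did not overlap. The fall was 3.19-fold at 6 °C against 30 °C (log2 fold change -1.68, SE 0.19, edgeR adjusted p = 9.47e-06), made of -0.77 ± 0.18 (adjusted p = 0.00367) at 22 °C against 30 °C and -0.91 ± 0.19 (adjusted p = 0.00289) at 6 °C against 22 °C. Plxna4, a receptor for Sema3a and Sema6a, was the plexin that rose. Its CPM values were 4.06, 4.21, 3.96 and 4.25 at 6 °C, 2.42, 2.56, 2.81 and 2.81 at 22 °C, and 2.44, 2.65, 2.34 and 2.77 at 30 °C. The 6 °C mice were above all others and the other 2 groups overlapped (log2 fold change 0.69, SE 0.13, edgeR adjusted p = 0.000557 against 30 °C; log2 fold change 0.63, SE 0.13, edgeR adjusted p = 0.00274 against 22 °C). Plxna1, with 103 ± 7.3 CPM at 6 °C, 120.2 ± 16.7 CPM at 22 °C and 157 ± 19.5 CPM at 30 °C, was lower in both cold groups, at -0.61 and -0.38. Of its exon length 10.7% lies opposite another annotated gene, whose reads cannot be told apart without strand. Plxna2 averaged 66.4 ± 3.72 CPM at 6 °C, 44.3 ± 16.3 CPM at 22 °C and 45.1 ± 17.5 CPM at 30 °C and was not called by edgeR, although its 6 °C mice all lay above its 22 °C mice. DESeq2 called it higher at 6 °C than at 30 °C (0.61, adjusted p = 0.0326) and than at 22 °C (0.62, adjusted p = 0.0482). By edgeR the first change was called without 30 °C mouse A (0.87, adjusted p = 0.00985), without mice A and B, and with only the 8 libraries compared. The second was called with the mouse number as a block (0.67, adjusted p = 0.0465).

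Plxnc1, Plxnb2 and Plxnb1 had their lowest means in mild cold. Plxnc1, the receptor of Sema7a, had 4.42, 5.25, 3.11 and 2.73 CPM at 6 °C, 2.23, 1.61, 1.77 and 1.63 CPM at 22 °C, and 4.98, 5.22, 11.2 and 14.6 CPM at 30 °C. It was 4.99-fold lower at 22 °C than at 30 °C (log2 fold change -2.32, SE 0.36, edgeR adjusted p = 0.000308), 2.32-fold lower at 6 °C (log2 fold change -1.21, SE 0.34, edgeR adjusted p = 0.00857), and 2.15-fold higher at 6 °C than at 22 °C (log2 fold change 1.11, SE 0.36, edgeR adjusted p = 0.0307). As with Sema4d, 30 °C mice A and B were the highest, and the 6 °C and 30 °C ranges overlapped. The call at 6 °C against 22 °C was lost without 6 °C mouse 1 or 2 or 22 °C mouse 2, 3 or 4, at adjusted p-values from 0.0672 to 0.0866.

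Plxnb2, a receptor for Sema4c and Sema4d, had 23.3, 28.9, 18.2 and 18.8 CPM at 6 °C, 13.1, 11.9, 15.3 and 12.8 CPM at 22 °C, and 27.5, 26.4, 57.2 and 65.4 CPM at 30 °C. The same 2 mice were again the highest at 30 °C. The gene was 3.31-fold lower at 22 °C than at 30 °C (log2 fold change -1.73, SE 0.30, edgeR adjusted p = 0.000806) and 1.98-fold lower at 6 °C (log2 fold change -0.98, SE 0.29, edgeR adjusted p = 0.0131). Without mice A and B the changes at 6 °C against 30 °C were -0.38 for Plxnc1 (adjusted p = 0.245) and -0.26 for Plxnb2 (adjusted p = 0.237). Those at 22 °C against 30 °C were -1.5 (adjusted p = 0.00159) and -1.02 (adjusted p = 0.00144). The macrophage sums given with Sema4d were highest in these same 2 mice, and their part was not tested here either.

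Plxnb1, the other Sema4d receptor, showed the pattern with little spread, at 4.23 ± 0.348 CPM at 6 °C, 3.5 ± 0.175 CPM at 22 °C and 6.32 ± 0.485 CPM at 30 °C. Its log2 fold changes were -0.85 ± 0.12 (adjusted p = 0.000129) at 22 °C and -0.58 ± 0.12 (adjusted p = 0.00102) at 6 °C against 30 °C. Plxnd1, an endothelial receptor of Sema3e and the most abundant plexin, had 148, 151, 137 and 140.3 CPM at 6 °C, 122, 107, 102 and 121 CPM at 22 °C, and 175, 212, 214 and 199 CPM at 30 °C. Its 3 ranges did not overlap, with 22 °C lowest and 30 °C highest. It changed by -0.82 ± 0.08 (adjusted p = 2.07e-05) at 22 °C and -0.47 ± 0.08 (adjusted p = 0.00038) at 6 °C against 30 °C, and by 0.35 ± 0.08 (adjusted p = 0.00667) at 6 °C against 22 °C. The difference of its steps was 1.17 (SE 0.15, adjusted p = 0.000295).

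**Figure D3:**
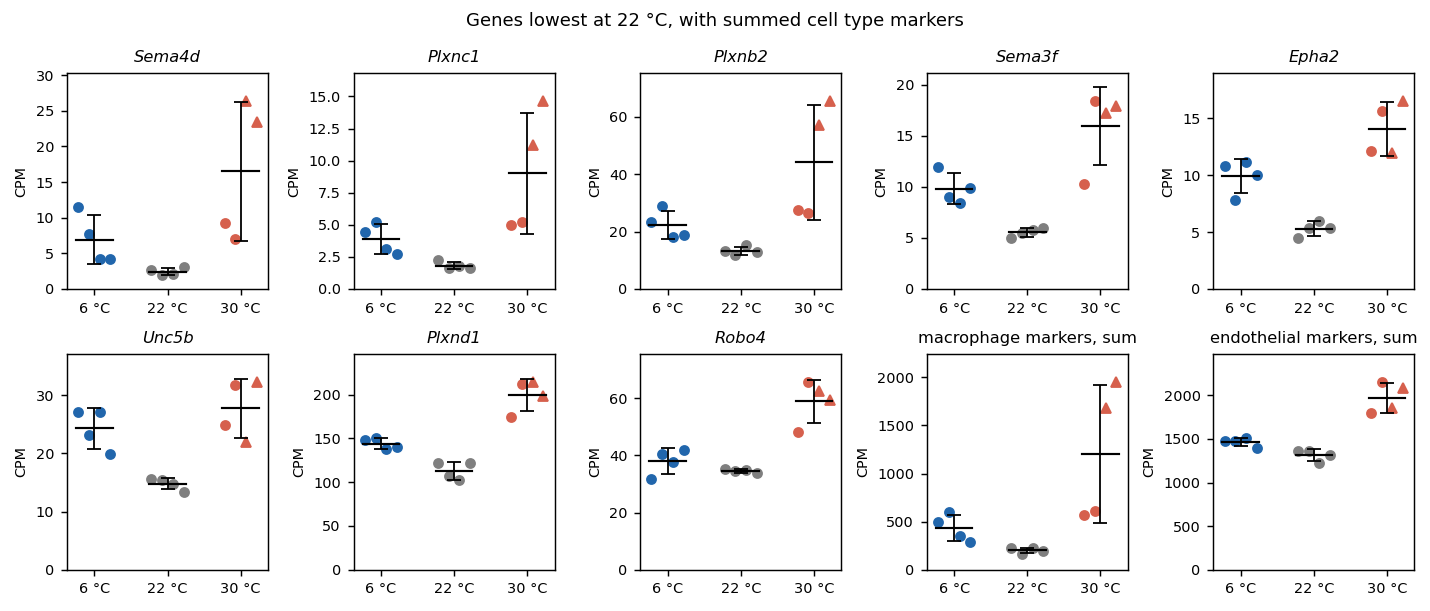
CPM of members with the lowest level at 22 °C in each mouse, on an axis that starts at 0, at 6 °C, 22 °C and 30 °C from left to right, with bars for the mean and the SD of 4 mice and triangles for 30 °C mice A and B. The 22 °C points of Sema4d, Plxnc1, Plxnb2, Sema3f, Epha2 and Plxnd1 lie below all points of the other temperatures, and the 2 triangles stand highest for the first 3 of these. The last 2 panels give the summed CPM of the macrophage and endothelial markers, and the triangles are highest in the macrophage panel.

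Both neuropilins were abundant. Nrp1 had 363, 343, 369 and 300.3 CPM at 6 °C, 278, 314, 342 and 332 CPM at 22 °C, and 292, 348, 349 and 294 CPM at 30 °C, all 3 ranges overlapped, and no pair passed the test. Its log2 fold change at 6 °C against 30 °C was 0.10 with an SE of 0.10, and it was -0.22 under total-count scaling, which also called Nrp1 lower at 22 °C than at 30 °C (-0.28, adjusted p = 0.0248). Nrp2, the co-receptor of Sema3f that is also found on lymphatic vessels, had 146, 135, 146 and 123 CPM at 6 °C, 119, 97.5, 122 and 129 CPM at 22 °C, and 170.0, 192, 163 and 159 CPM at 30 °C. The 30 °C mice lay above all others, and the changes were -0.31 ± 0.10 (adjusted p = 0.0126) at 6 °C and -0.55 ± 0.10 (adjusted p = 0.000531) at 22 °C against 30 °C. Of 6 tested lymphatic endothelial markers, 1 rose and 1 fell at 6 °C against 30 °C, where 25.3% of all tested genes rose and 31.5% fell.

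All 3 tested Robos were lower at 6 °C than at 30 °C, where 31.5% of all tested genes fell. Robo4, the endothelial Robo, had 31.7, 40.4, 37.6 and 42 CPM at 6 °C, 35.1, 34.6, 35 and 33.7 CPM at 22 °C, and 48.2, 65.6, 62.5 and 59.5 CPM at 30 °C. The 2 cold groups overlapped and lay below 30 °C. It changed by -0.64 ± 0.10 (adjusted p = 0.000168) at 6 °C and -0.77 ± 0.10 (adjusted p = 9.73e-05) at 22 °C against 30 °C. Robo1, a Slit receptor of axons, had 1.18, 1.04, 1.03 and 1.68 CPM at 6 °C, 0.891, 1.01, 1.13 and 0.66 CPM at 22 °C, and 2.34, 2.09, 1.92 and 2.87 CPM at 30 °C. Both cold ranges were below 30 °C (log2 fold change -0.92, SE 0.23, edgeR adjusted p = 0.00411 at 6 °C; log2 fold change -1.29, SE 0.23, edgeR adjusted p = 0.000691 at 22 °C). Robo2, the scarcest, fell at 6 °C, with 0.152 ± 0.061 CPM at 6 °C, 0.381 ± 0.199 CPM at 22 °C and 0.383 ± 0.0458 CPM at 30 °C (log2 fold change -1.28, SE 0.45, edgeR adjusted p = 0.0275 against 30 °C). That call was lost without mice A and B, and DESeq2 did not make it. It was lost too without 6 °C mouse 1, 3 or 4, or 30 °C mouse A alone. Against 22 °C it was -1.37 ± 0.45 (adjusted p = 0.0304), a call lost without 6 °C mouse 1, 3 or 4 or 22 °C mouse 2, 3 or 4.

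Unc5b, a netrin receptor of arterial and sprouting capillary endothelium, was lowest in mild cold. It had 27.1, 23.2, 27.1 and 19.8 CPM at 6 °C, 15.5, 15.4, 14.7 and 13.4 CPM at 22 °C, and 24.9, 31.8, 22 and 32.2 CPM at 30 °C. The 22 °C mice lay below all others, while 6 °C and 30 °C overlapped: -0.91 ± 0.13 (adjusted p = 0.000196) at 22 °C against 30 °C, 0.72 ± 0.13 (adjusted p = 0.00155) at 6 °C against 22 °C and -0.19 ± 0.13 (adjusted p = 0.239) at 6 °C against 30 °C. The difference of the steps was 1.63 (SE 0.24, adjusted p = 0.000654). Unc5a rose at 6 °C against 30 °C, with 5.96 ± 0.976 CPM at 6 °C, 5.18 ± 1.33 CPM at 22 °C and 4.03 ± 0.65 CPM at 30 °C (log2 fold change 0.56, SE 0.20, edgeR adjusted p = 0.0287). That call was lost under total-count and upper-quartile scaling, and without 6 °C mouse 1 or 4 or 30 °C mouse 2 or B. It was also lost without mice A and B together. Unc50 had 35.4, 34, 39.9 and 31.7 CPM at 6 °C, 39.3, 44.4, 42.9 and 42.8 CPM at 22 °C, and 37, 41.6, 39.9 and 38.6 CPM at 30 °C. It was lower at 6 °C than at 22 °C (log2 fold change -0.26, SE 0.08, edgeR adjusted p = 0.0186), with 35.2 ± 3.45 CPM at 6 °C, 42.3 ± 2.16 CPM at 22 °C and 39.3 ± 1.94 CPM at 30 °C. Its difference of the steps had an adjusted p of 0.05, at the threshold. The first call was lost without 6 °C mouse 2 or 4 and the second without any 1 library other than 6 °C mouse 3 or 22 °C mouse 1. The second was lost too without 30 °C mice A and B together.

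Endothelial markers were mostly lower in the cold. Of 15 tested markers 1 rose and 10 fell at 6 °C against 30 °C, and 12 fell at 22 °C. They summed to 1394 to 1506 CPM at 6 °C, 1226 to 1364 CPM at 22 °C and 1798 to 2151 CPM at 30 °C. Of 15 fibroblast markers, 12 were lower in each cold group than at 30 °C, with sums of 1042 to 1292 CPM at 6 °C, 1201 to 1769 CPM at 22 °C and 2961 to 5578 CPM at 30 °C. No marker of either list was at 0. Of all tested genes, 25.3% rose and 31.5% fell at 6 °C, and 22.8% fell at 22 °C, against 30 °C. At 6 °C against 30 °C, 1 of 12 pericyte and smooth muscle markers rose and 7 fell. Of 12 Schwann cell markers 1 rose and 3 fell, and of 6 tested white adipocyte markers 1 rose and 4 fell. The part of these lists in the results was not tested.

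Among the EphA receptors, 3 of 5 tested genes (60%) fell at 6 °C against 30 °C, against 31.5% of all tested genes. Epha2, a receptor of ephrin-A1 in endothelium and epithelium, was lowest in mild cold. It had 10.8, 7.79, 11.1 and 9.97 CPM at 6 °C, 4.45, 5.37, 6.01 and 5.32 CPM at 22 °C, and 12.2, 15.6, 12 and 16.5 CPM at 30 °C. No range overlapped another. The gene was 2.64-fold lower at 22 °C than at 30 °C (log2 fold change -1.4, SE 0.15, edgeR adjusted p = 2.77e-05), -0.50 ± 0.15 (adjusted p = 0.0104) at 6 °C against 30 °C, and 1.86-fold higher at 6 °C than at 22 °C (log2 fold change 0.90, SE 0.15, edgeR adjusted p = 0.000806). Epha3 averaged 0.478 ± 0.162 CPM at 6 °C, 0.628 ± 0.144 CPM at 22 °C and 0.95 ± 0.144 CPM at 30 °C and Epha7 0.228 ± 0.10 CPM at 6 °C, 0.626 ± 0.337 CPM at 22 °C and 0.535 ± 0.048 CPM at 30 °C. Both were lower at 6 °C than at 30 °C, at -0.96 and -1.23, and Epha7 was also lower than at 22 °C. The first Epha7 call was lost without 6 °C mouse 1 or 2 or 30 °C mouse 1 or A, and was not made by DESeq2. It was also lost without 30 °C mice A and B together. The second Epha7 call was lost without 6 °C mouse 1 or 2 or the deep 22 °C library.

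All 5 EphB receptors changed at 6 °C against 30 °C, 1 up and 4 down. Of all tested genes 56.8% changed there, 25.3% up and 31.5% down. Ephb2, a receptor of B-type ephrins with roles in synapses and boundary formation, was the only member that rose in both cold groups. It had 3.33, 4.35, 3.33 and 5.19 CPM at 6 °C, 3.71, 3.16, 4.59 and 3.12 CPM at 22 °C, and 1.25, 1.29, 0.629 and 1.07 CPM at 30 °C. The 2 cold groups overlapped, and each lay above all 30 °C mice. Ephb2 was 3.82-fold higher at 6 °C (log2 fold change 1.93, SE 0.25, edgeR adjusted p = 2.64e-05) and 3.48-fold higher at 22 °C (log2 fold change 1.8, SE 0.24, edgeR adjusted p = 0.000113) than at 30 °C. At 6 °C against 22 °C it was 0.13 ± 0.23 (adjusted p = 0.675), and the difference of the steps was -1.66 (SE 0.39, adjusted p = 0.00751).

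Ephb1, a paralog with the same class of ligands, went the opposite way. Its CPM values were 1.3, 0.936, 1.24 and 1.31 at 6 °C, 1.58, 2.68, 1.93 and 2.51 at 22 °C, and 3.79, 5.02, 4.67 and 5.92 at 30 °C. The 3 ranges did not overlap. It was 4.07-fold lower at 6 °C than at 30 °C (log2 fold change -2.02, SE 0.21, edgeR adjusted p = 5.81e-06), with -1.17 ± 0.20 (adjusted p = 0.000545) at 22 °C against 30 °C and -0.86 ± 0.22 (adjusted p = 0.0087) at 6 °C against 22 °C. Ephb6, a family member whose kinase domain is inactive, fell in severe cold, with 1.95, 1.64, 1.8 and 2.15 CPM at 6 °C, 2.72, 2.38, 3.56 and 2.68 CPM at 22 °C, and 3.9, 3.74, 3.27 and 3.09 CPM at 30 °C. Its 6 °C mice were below all others (log2 fold change -0.89, SE 0.17, edgeR adjusted p = 0.000659 against 30 °C; log2 fold change -0.61, SE 0.17, edgeR adjusted p = 0.0153 against 22 °C), and the second call was lost without the deep 22 °C library, at an adjusted p of 0.0614.

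Ephb3 had 0.609, 1.17, 0.885 and 1.1 CPM at 6 °C, 1.24, 1.25, 0.955 and 1.01 CPM at 22 °C, and 1.97, 1.41, 1.62 and 2.46 CPM at 30 °C, with both cold ranges below 30 °C (log2 fold change -0.98, SE 0.25, edgeR adjusted p = 0.00426 at 6 °C; log2 fold change -0.76, SE 0.24, edgeR adjusted p = 0.0214 at 22 °C). The call at 22 °C was lost without 22 °C mouse 3 or 4 or 30 °C mouse B, and without mice A and B together. Ephb4, the venous receptor of ephrin-B2 and the most abundant Eph, had 52.6, 43.1, 49.9 and 42 CPM at 6 °C, 43.7, 45.9, 39.2 and 43 CPM at 22 °C, and 49, 60.4, 64.2 and 67.6 CPM at 30 °C. It was lower at 6 °C, with overlap (log2 fold change -0.36, SE 0.10, edgeR adjusted p = 0.00952), and at 22 °C, without overlap (log2 fold change -0.49, SE 0.10, edgeR adjusted p = 0.00202). Without mice A and B the change at 6 °C was -0.21 (adjusted p = 0.17).

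**Figure D4:**
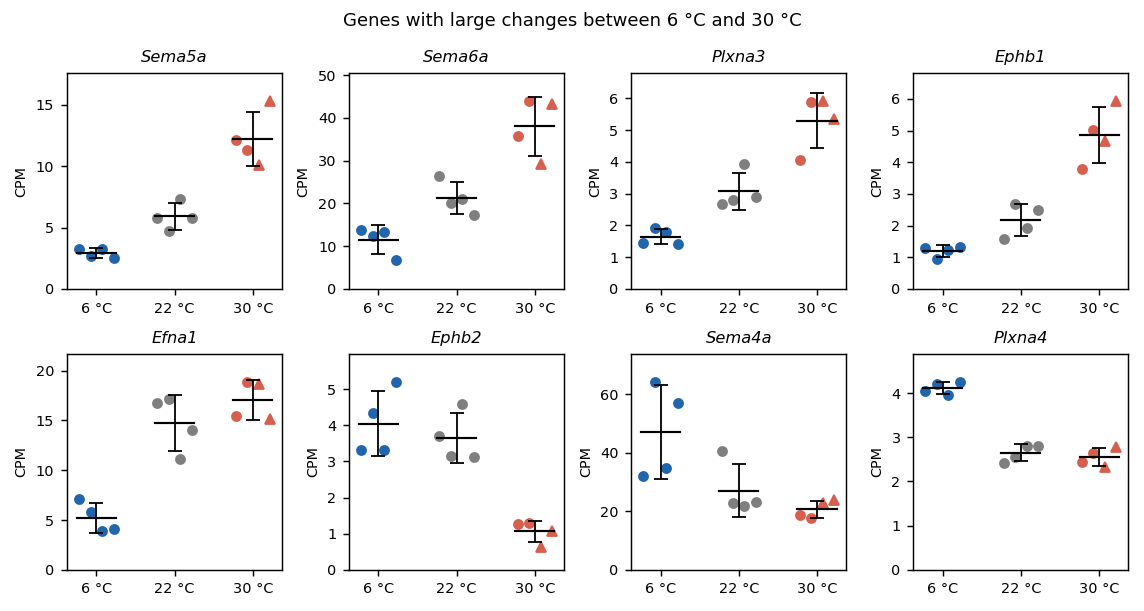
CPM in each mouse of members with large changes between 6 °C and 30 °C, on axes that start at 0, at 6 °C, 22 °C and 30 °C from left to right, with bars for the mean and the SD of 4 mice and triangles for 30 °C mice A and B. Sema5a, Ephb1, Sema6a and Plxna3 step down from 30 °C to 22 °C to 6 °C with no overlap, and Ephb2 is low at 30 °C alone.

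Sema5a, Sema6a, Plxna3 and Ephb1 were the 4 members lower in all 3 pairs, and Ephb2 was the member that moved against them in both cold groups. How many of all tested genes were lower in all 3 pairs was not counted. The start regions of these named members are shown so that those that moved together can be read beside the one that did not. Sema5a lies at chr15:32244810-32696341, Plxna3 at chrX:74329066-74344689, Ephb1 at chr9:101922128-102354693 and Ephb2 at chr4:136647539-136835988 in the GRCm38 annotation. Each sequence runs 5′ to 3′ on the gene's strand from 250 bases before to 50 bases after the RefSeq start (GRCm38.p6). The table used gave no window for Sema6a. Capitals mark matches on either strand to the cAMP response element half-site TGACG, the E-box CACGTG, the GC box GGGCGG or the TATA box TATAAA.
Sema5a (chr15:32244563-32244862, plus strand): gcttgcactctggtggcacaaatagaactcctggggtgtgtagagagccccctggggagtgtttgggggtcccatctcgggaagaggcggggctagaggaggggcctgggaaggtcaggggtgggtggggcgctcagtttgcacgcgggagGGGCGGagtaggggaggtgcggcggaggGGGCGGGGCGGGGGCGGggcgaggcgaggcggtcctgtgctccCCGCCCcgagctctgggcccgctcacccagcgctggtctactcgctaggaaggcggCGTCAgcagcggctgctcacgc
Plxna3 (chrX:74328816-74329115, plus strand): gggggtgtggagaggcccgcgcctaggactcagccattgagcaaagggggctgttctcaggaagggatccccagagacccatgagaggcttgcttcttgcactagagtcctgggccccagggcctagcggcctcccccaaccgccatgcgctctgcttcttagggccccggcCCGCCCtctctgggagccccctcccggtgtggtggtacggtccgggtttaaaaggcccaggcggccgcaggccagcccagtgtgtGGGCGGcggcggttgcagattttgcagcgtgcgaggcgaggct
Ephb1 (chr9:102354644-102354943, minus strand): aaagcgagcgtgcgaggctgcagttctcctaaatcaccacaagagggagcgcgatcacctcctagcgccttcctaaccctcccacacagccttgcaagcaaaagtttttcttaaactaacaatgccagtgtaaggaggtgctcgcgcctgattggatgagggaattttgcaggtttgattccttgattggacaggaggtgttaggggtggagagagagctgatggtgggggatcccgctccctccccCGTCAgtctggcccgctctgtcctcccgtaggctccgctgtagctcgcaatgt
Ephb2 (chr4:136835963-136836262, minus strand): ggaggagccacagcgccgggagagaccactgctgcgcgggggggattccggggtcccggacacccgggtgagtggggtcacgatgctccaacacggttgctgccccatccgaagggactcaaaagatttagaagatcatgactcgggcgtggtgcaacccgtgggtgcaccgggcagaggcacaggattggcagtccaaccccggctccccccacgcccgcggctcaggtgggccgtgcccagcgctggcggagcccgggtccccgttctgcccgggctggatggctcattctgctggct

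Sema5a and Ephb1 each hold 1 half-site in these windows, written as its reverse complement CGTCA, and Plxna3 and Ephb2 hold none. GC boxes number 5 in Sema5a, where 3 stand in an overlapping or adjoining run, and 2 in Plxna3, with none in Ephb1 or Ephb2. None of the 4 windows holds the E-box or TATA box, so the Ephb2 sequence carries no capitals. Over the whole family, 61 of 70 member symbols had at least 1 window. The half-site stood in 10 of their 77 windows (13%), against 20.8% of all 32851 windows of the same length, and the GC box in 55 (71.4%), against 35.7%. The E-box stood in 5 (6.49%, against 7.15%) and the TATA box in 2 (2.6%, against 13.6%). A match is a run of letters and not a measured site.

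Ligands and receptors known to bind each other did not all move together. Sema4d and its receptors Plxnb1 and Plxnb2 were all lower in both cold groups and lowest at 22 °C. Sema3f and Nrp2 also shared their direction in both comparisons with 30 °C, as did Efnb2 and Ephb4. So did Sema4c and Plxnb2, and Sema5a with Plxna1 and Plxna3. Without 30 °C mice A and B, the calls of Sema4d, Plxnb2, Sema3f and Ephb4 at 6 °C against 30 °C were lost. Their calls at 22 °C against 30 °C were kept. Sema7a, in contrast, was not called while its receptor Plxnc1 fell, at 6 °C only with mice A and B included. Efna1 was lowest in severe cold (5.23 ± 1.52 CPM, against 14.8 ± 2.78 CPM at 22 °C) while its receptor Epha2 was lowest in mild cold (9.92 ± 1.5 CPM at 6 °C, against 5.29 ± 0.64 CPM at 22 °C). Sema3e averaged 0.866 ± 0.223 CPM at 22 °C, its highest mean, where its receptor Plxnd1 had its lowest. With all libraries edgeR did not call the change of Sema3e at 22 °C against 30 °C. Sema6a fell at 6 °C while Plxna4 rose and its other receptor named above, Plxna2, was not called by edgeR. Ephb2, a receptor of B-type ephrins, rose in both cold groups against 30 °C while Efnb1 and Efnb2 fell. The Efnb1 call at 6 °C was lost without mice A and B. Whether a pair shares a direction more often than other pairs was not tested.

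**Figure D5:**
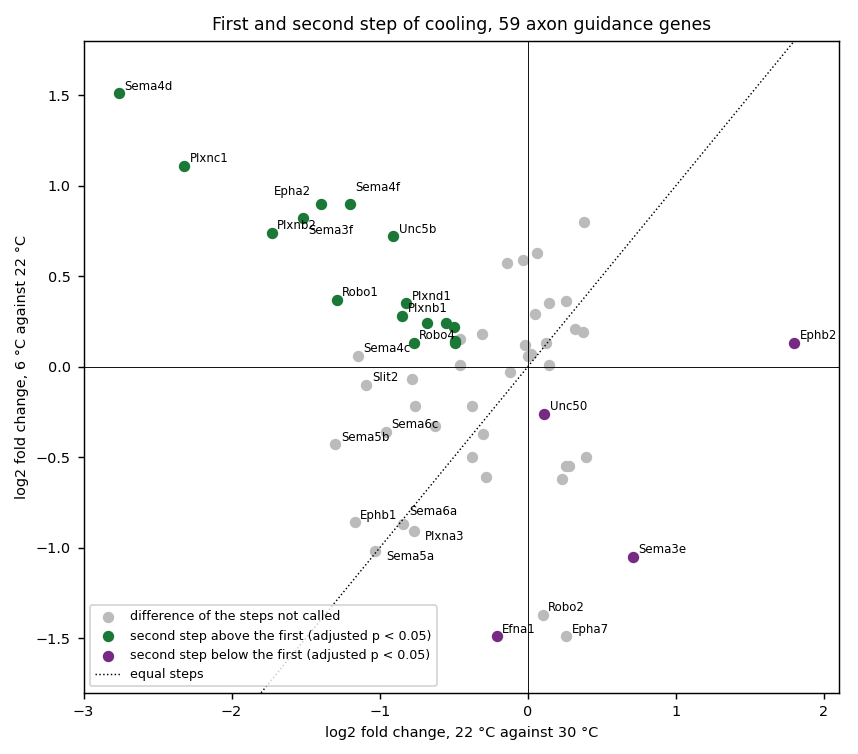
The log2 fold change of 22 °C against 30 °C (x axis) and of 6 °C against 22 °C (y axis) for the 59 tested genes, with 1 point per gene, colours for the call on the difference of the steps, and a dotted line where both steps are equal. Most green points (16 genes with a positive difference) fell in the first step and lie at or above 0 in the second, the 4 purple points lie below the line, and Sema5a, Sema6a, Plxna3 and Ephb1 lie near it. Both axes use the 22 °C mice, so noise in those mice moves a point along the opposite diagonal.

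Of the 16 members with a positive difference of the steps, 7 were lower at 22 °C than at 30 °C and higher at 6 °C than at 22 °C. They were Efnb2, Epha2, Plxnc1, Plxnd1, Sema3f, Sema4d and Unc5b. How many of all tested genes had these calls was not counted. The largest differences of the steps were 4.27 for Sema4d, 3.43 for Plxnc1, 2.47 for Plxnb2, 2.34 for Sema3f and 2.3 for Epha2. Their SEs were 0.90, 0.65, 0.53, 0.32 and 0.27. Epha2 had the smallest adjusted p among the members, 0.000204. Robo1 and Robo4 also had a positive difference, of 1.66 and 0.90, and fell in the first step without a call in the second. Some calls on this difference were lost without 1 library. For Efnb1 these were 6 °C mouse 2 or 3, 22 °C mouse 2, 3 or 4, or 30 °C mouse 2 or B, and for Ephb4 22 °C mouse 3 or 4. For Sema3g they were 6 °C mouse 2 or 4, 22 °C mouse 1, 2 or 3, or 30 °C mouse 2, A or B, and for Sema4f 22 °C mouse 4. The calls of Efnb1, Ephb4 and Sema3g on this difference were also lost without mice A and B together. Without the deep 22 °C library, Plxnc1, Sema4d and Efnb2 were no longer called higher at 6 °C than at 22 °C.

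In all, 15 of the 59 tested members were not called in any of the 3 pairs by edgeR. They were Efna2, Efna4, Efna5, Efnb3, Epha1, Epha4, Nrp1, Ntn4, Plxna2, Plxnb3, Sema3c, Sema3d, Sema7a, Slit1 and Slit3. How many of all tested genes were called in no pair was not counted, so the 15 have no background to be read against. Other settings called Plxna2, Nrp1, Slit3 and Efna4, as given above, and limma voom called Epha4 lower at 22 °C than at 30 °C (-0.60, adjusted p = 0.0237). Epha4 was called lower there also under total-count and upper-quartile scaling, without 22 °C mouse 1, without 30 °C mouse A, and without mice A and B. Another 12 rows were not tested because of low counts: Epha5, Epha6, Epha8, Epha10, Robo3, Unc5c, Unc5d, Unc5cl, Sema3a, Efna3, Ntn5 and a second row named Efna5. Unc5c had the most counts of these, 95 over the 12 libraries, and the second Efna5 row had 0 in each, which allows up to 3 counts per library. Sema3a, a classic repellent of sympathetic axons, had 63 counts in all.

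Other genes of the guidance machinery were described from a list of 87 co-receptors, adaptors, GTPases and kinases with no member among them. Of 77 tested, 15 rose and 31 fell at 6 °C against 30 °C, with a median of -0.19, against -0.11 over all tested genes and the shares of 25.3% and 31.5% given above. Dcc, the attracting netrin receptor, had too few counts to test, while its relative Neo1 had 28 ± 0.928 CPM at 6 °C and 27.4 ± 3.73 CPM at 30 °C (log2 fold change 0.03, edgeR adjusted p = 0.823). Ptpn11, the phosphatase Shp2, had 319 ± 38 CPM at 6 °C and 151 ± 9.62 CPM at 30 °C (log2 fold change 1.08, edgeR adjusted p = 6.19e-07). Arhgef12, an exchange factor bound by plexin-B, had 323 ± 17.8 CPM at 6 °C and 164 ± 15.2 CPM at 30 °C (log2 fold change 0.98, edgeR adjusted p = 7.23e-07). Mical2, an actin-oxidising enzyme of the MICAL family, had 52.5 ± 4.39 CPM at 6 °C and 25.1 ± 2.03 CPM at 30 °C (log2 fold change 1.06, edgeR adjusted p = 3.21e-06), and Farp2, an exchange factor in Sema3a signalling, had 13.6 ± 1.43 CPM at 6 °C and 8.97 ± 0.672 CPM at 30 °C (log2 fold change 0.60, edgeR adjusted p = 0.000161).

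Those 4 had the smallest p-values among the rises. Among the falls they belonged to Srgap2, a Robo-binding GTPase-activating protein, with 25.4 ± 3.36 CPM at 6 °C and 46.4 ± 2.51 CPM at 30 °C (log2 fold change -0.87, edgeR adjusted p = 4.66e-06), and Fyn, a kinase downstream of plexins and ephrins, with 15.8 ± 1.26 CPM at 6 °C and 28 ± 2.66 CPM at 30 °C (log2 fold change -0.83, edgeR adjusted p = 6.12e-06). Vasp, an actin regulator, had 29.1 ± 1.99 CPM at 6 °C and 58.8 ± 9.62 CPM at 30 °C (log2 fold change -1.01, edgeR adjusted p = 6.37e-06), and Dpysl4, of the collapsin response mediator family, had 0.466 ± 0.197 CPM at 6 °C and 2.71 ± 0.198 CPM at 30 °C (log2 fold change -2.51, edgeR adjusted p = 2.04e-05). Under total-count scaling 51 of the 77 tested genes of this list fell, and 7888 of all 14870 tested genes (53%) did.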

How the data were processed

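Per the labels' protocols, total RNA of each depot was extracted with Qiazol and RNeasy columns, freed of DNA and made into Illumina libraries. The authors deposited raw read counts per Ensembl gene, not normalised. The submitters' processing notes list STAR 2.4.2a, edgeR 3.14.0 and FastQC 0.10.1, with no roles. For the counting program and strandedness nothing was stated in the labels or notes, so overlapping genes on opposite strands cannot be told apart. Overlap exceeded 5% of exon length for Plxna1, Sema4c (7.3%), Epha1 (6%), Efna3, Efna4 and Ntn5.

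Symbols turned into dates in the table (27) were restored from identifiers. Positions and exon lengths are from GENCODE M21 (GRCm38), which held 96.6% of the identifiers. Genes passing filterByExpr were fitted with edgeR 4.0.16 in R 4.3.3: TMM scaling, 1 factor of 3 temperatures over 12 libraries, glmQLFit with robust estimation and two-sided glmQLFTest, adjusted by Benjamini-Hochberg over 14870 genes. A gene rose or fell at an adjusted p under 0.05. SEs are the log2 fold change over the square root of F. SDs are over the 4 mice of a temperature. The labels number the mice of a group separately, and no label does so for the columns of mice A and B, so p-values speak for the spread between these libraries. The script was tested on simulated data.

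At the smallest library total, 1 CPM is about 18.3 counts. No pair of libraries of a temperature was a duplicate: the smallest chi-square over its degrees of freedom was 22.8. Same-numbered mice of different temperatures had deviations that correlated between -0.17 and 0.26 over 8 pairs, with 3 above 0.1, so the numbers were not taken to pair them. Full values are given for members with a mean of at least 1 CPM that passed the test without overlap of the 2 groups (the 10 largest changes each way at 6 °C against 30 °C, 4 each way in the other pairs), for the 4 smallest p-values each way on the difference of the steps, and for the most abundant member of each role. Other members named by mouse or mean were chosen after their values were seen. The members, lists and alternatives were chosen with earlier results of these data known. The macrophage marker Adgre1 stands in the table under an older symbol and was matched by its identifier.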

Additional observations from a re-analysis of the deposited data

Results flagged for a closer look

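In 3 of the 90 groups of 4 mice looked at, for the members with full values, 1 mouse stood far from the others by Dixon's criterion, the gap to its neighbour as a share of the group's range. Chance flags about 1 group in 20. Sema3f had 10.23 CPM in 30 °C mouse 1, against 17.2 to 18.4 CPM in the other 30 °C mice. Sema4a had 40.57 CPM in 22 °C mouse 1, against 21.9 to 23 CPM in the other 22 °C mice. Ntn4 had 7.267 CPM in 6 °C mouse 1, against 7.82 to 7.92 CPM in the other 6 °C mice. Without 30 °C mouse 1 or without 22 °C mouse 1, the calls of Sema3f and Sema4a given above were all kept.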

How the results depend on the processing

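Of the 65 called changes of the members with full values, 44 were kept under each alternative that tested the gene, other than the 2 stricter thresholds, and none was reversed. Of the 106 calls of all members, 60 were kept in this way and 32 under the stricter thresholds too. Members called higher at 6 °C against 30 °C numbered 7, and 4 under upper-quartile scaling, 3 under total-count scaling, 4 without 30 °C mice A and B, 3 at an adjusted p under 0.01 and 2 at 2-fold or more. Members called lower there numbered 31, and 13 at 2-fold or more. At 22 °C against 30 °C 1 was higher, and 2 with no filter or by limma voom; 26 were lower, and 12 at 2-fold or more. At 6 °C against 22 °C 10 were higher, and 6 with no filter, 6 without the deep 22 °C library, 5 at an adjusted p under 0.01 and 2 at 2-fold or more. There 11 were lower, and 6 without that library, 5 at an adjusted p under 0.01 and 5 at 2-fold or more. Negative differences of the steps numbered 4, and 2 without mice A and B, 2 without the deep library and 1 at an adjusted p under 0.01. Signalling genes called lower numbered 31, and 51 under total-count scaling. Over all 14870 tested genes, 871 were higher and 1845 lower by 2-fold or more at 6 °C against 30 °C. The numbers were 421 and 1449 at 22 °C against 30 °C, and 720 and 606 at 6 °C against 22 °C. Without 30 °C mice A and B, 3214 of 15171 tested genes were higher and 3356 lower at 6 °C against 30 °C. Without the deep library, 2301 of 15111 were higher and 2247 lower at 6 °C against 22 °C, and 2511 and 2580 of 14870 with it. Stricter thresholds call fewer genes by construction. Otherwise the cause was not tested.

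Leaving out 1 library at a time gave 1 to 3 members higher at 22 °C against 30 °C (3 without 22 °C mouse 2 or 30 °C mouse 1). It gave 6 to 11 higher at 6 °C against 22 °C (6 without 6 °C mouse 2 or 22 °C mouse 2 or 3), 6 to 11 lower (6 without 22 °C mouse 3) and 2 to 5 negative differences of the steps (2 without 6 °C mouse 2 or 22 °C mouse 3 or 4). Of 106 calls of members over the 4 contrasts, 26 were lost without some single library.

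Among changes that were not called, signs turned as follows. Nrp1 at 22 °C against 30 °C was 0.01 under RLE scaling and by DESeq2, and -0.07 to 0.04 without single libraries; at 6 °C against 30 °C it was -0.22 under total-count scaling. Sema7a was -0.02 (upper quartile), -0.23 (total counts) and -0.06 (without the deep library) at 22 °C against 30 °C, and -0.21 (total counts) at 6 °C against 30 °C. Without single libraries it was -0.15 to 0.32 and -0.08 to 0.39 in these pairs, and -0.11 to 0.19 at 6 °C against 22 °C. Ntn4 under total-count scaling was -0.17 at 6 °C and -0.12 at 22 °C against 30 °C, and -0.05 at 6 °C against 22 °C, where it was -0.01 under upper-quartile scaling and -0.11 to 0.11 without single libraries. Total counts also gave -0.20 for Plxna4 and -0.15 for Unc50 at 22 °C against 30 °C. Sema4c at 6 °C against 22 °C was -0.12 without the deep library and -0.19 to 0.25 without single libraries.

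With the mouse number as a replicate block, in the 10 libraries matched to a numbered mouse, 3 members were called higher and 17 lower at 6 °C against 30 °C. Over all genes that fit called 2812 higher and 2871 lower of 15171 tested. With all 12 libraries and no block the numbers were 3767 and 4677 of 14870. In the fit with the block 19 signalling genes were lower and 1 difference of the steps was negative. The same 10 libraries without the block gave 4 members higher and 21 lower at 6 °C against 30 °C, and 3214 and 3356 of all 15171 tested genes. Under the block Ntn4 was -0.02 at 6 °C and -0.06 at 22 °C against 30 °C, and Efna1 was 0.04 at 22 °C. Low counts limit members below about 1 CPM, such as Slit1, Robo2 and Epha7, where 1 CPM is about 18.3 counts in the smallest library.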
